A study of Homo sapiens with 6 samples.

Results

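The SLCO genes encode the organic anion transporting polypeptides, membrane carriers that bring amphipathic molecules into cells. The 8 genes described here (SLCO4A1, SLCO3A1, SLCO1B3, SLCO2A1, SLCO1A2, SLCO2B1, SLCO4C1 and SLCO5A1) were taken by name from the authors' deposited table of 1 comparison, each by its RefSeq accession with the highest base mean, out of 27738 genes in all. A base mean is the mean over all libraries of reads divided by a library size factor. Of the 8 genes, 3 had an adjusted p in the authors' deposited table, 1 had reads but no adjusted p, and 4 were listed at 0. The members were chosen by their family and selected on base mean and fold change in this same comparison, so their values are given as a description and support nothing by themselves.

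The comparison was made in U87, an established human glioblastoma cell line. The group called here the knockout, EGFR+vIII TLR2 KO in the labels, is labelled as carrying EGFR, its mutant vIII and a knockout of TLR2. It was set against EGFR+vIII, labelled with EGFR and vIII but no knockout. EGFR is a growth factor receptor of the cell surface, and vIII is a truncated form known from glioblastoma that signals without ligand. TLR2 is a sensor of microbial lipoproteins in innate immunity. Each group had 3 libraries, and the labels do not say whether these came from separate cultures or from 1 clone, so the p-values reflect only how far these libraries differ among themselves, and that spread may be technical.

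Members of the SLCO family take up bile salts, conjugated steroids, thyroid hormones, prostaglandins and many drugs without the sodium gradient. Some, such as SLCO1B1 and SLCO1B3, are known as uptake carriers of hepatocytes, and SLCO1A2, SLCO1C1 and SLCO2B1 are known from the blood-brain barrier. Others, such as SLCO3A1 and SLCO4A1, are found in many tissues, and several members are expressed in tumours.

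The authors' deposited table has no value per library. Its base means sum to 11240272 normalized reads, the average number of reads assigned per library, and the library size factors lay between 0.928 and 1.07. Fold changes are read as the knockout over EGFR+vIII, since the deposited comparison is named in that order. The targeted gene cannot check this, because all 8 accessions of TLR2 are listed at 0 in the authors' deposited table. With the opposite order, each rise below would be a fall and each fall a rise. EGFR itself has 9 accessions, of which 5 are listed at 0 and the highest base mean is 1.32, in the authors' deposited table. That level is low for cells labelled with EGFR in both groups. Protein-coding genes with 4 or more accessions are listed at 0 in 47.4% of cases, against 30.0% with 1. Whether reads in bases shared by several accessions were left out was not tested, so the level does not show that EGFR was absent. Base means of glioma markers were high for VIM (126476) and S100A6 (73520) in the authors' deposited table, with NES at 540 and CD44 at 26.7. All 4 hepatocyte markers (ALB, APOA1, TTR and SERPINA1) and all 3 neuron markers (RBFOX3, SYT1 and SNAP25) are listed at 0, as are the leucocyte markers PTPRC and CD14, while CD68 has a base mean of 42.6 and CD3E 2.47. The 4 endothelial markers sum to 729 in base mean, of which KDR has 556 and PECAM1 159, while VWF has 13.5 and CDH5 0.539. None of the 4 tested endothelial and leucocyte markers was called by the authors' DESeq2 run, and 2 of them (PECAM1 and CD68) had an unadjusted p under 0.05. The share called over all genes was 25.1%. Of the 4 glioma markers, 2 were called higher and 1 lower. In log2 units, NES rose by 1.01 (SE 0.12), S100A6 rose by 0.20 (SE 0.08) and VIM fell by 0.29 (SE 0.08). In a bulk sample, fewer cells of a type and less RNA per cell cannot be told apart.

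SLCO4A1 was the SLCO gene with the highest base mean and the only 1 of the 3 tested SLCO genes with an adjusted p under 0.05 in the authors' deposited table. It encodes OATP4A1, a carrier of thyroid hormones among other anions. SLCO4A1 (accession NM_016354, chromosome 20, 62642503 to 62690740, GRCh38) has a base mean of 1511 in the authors' deposited table. Its deposited log2 fold change is 2.83, with an SE of 0.11 and an adjusted p = 5.66e-141 from the authors' DESeq2 run. This is 7.09-fold higher in the knockout, with a 95% interval from the SE of 6.10 to 8.24. With 3 libraries on each side, the base mean and the fold change together imply means of about 2648 normalized reads per library in the knockout and 374 in EGFR+vIII.

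The adjusted p of SLCO4A1 ranks 7 of 10303 tested accessions, and its rise ranks 56. Over all tested accessions 23.5% were called, 11.6% higher and 11.9% lower. Counted by gene, 25.1% of 9372 were called, 12.4% higher and 12.7% lower. Of the SLCO members, 1 was called higher and 0 lower by the authors' DESeq2 run, and at an unadjusted p under 0.05 the counts were again 1 and 0. Among the 156 genes with a solute carrier symbol and an adjusted p, SLCO genes included, SLCO4A1 had the largest log2 fold change in absolute size. Per kilobase of its transcript, SLCO4A1 has a base mean of 544, against a median of 27.3 over the 9414 tested accessions with a length, and stands at the percentile 84.8.

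**Figure D1:**
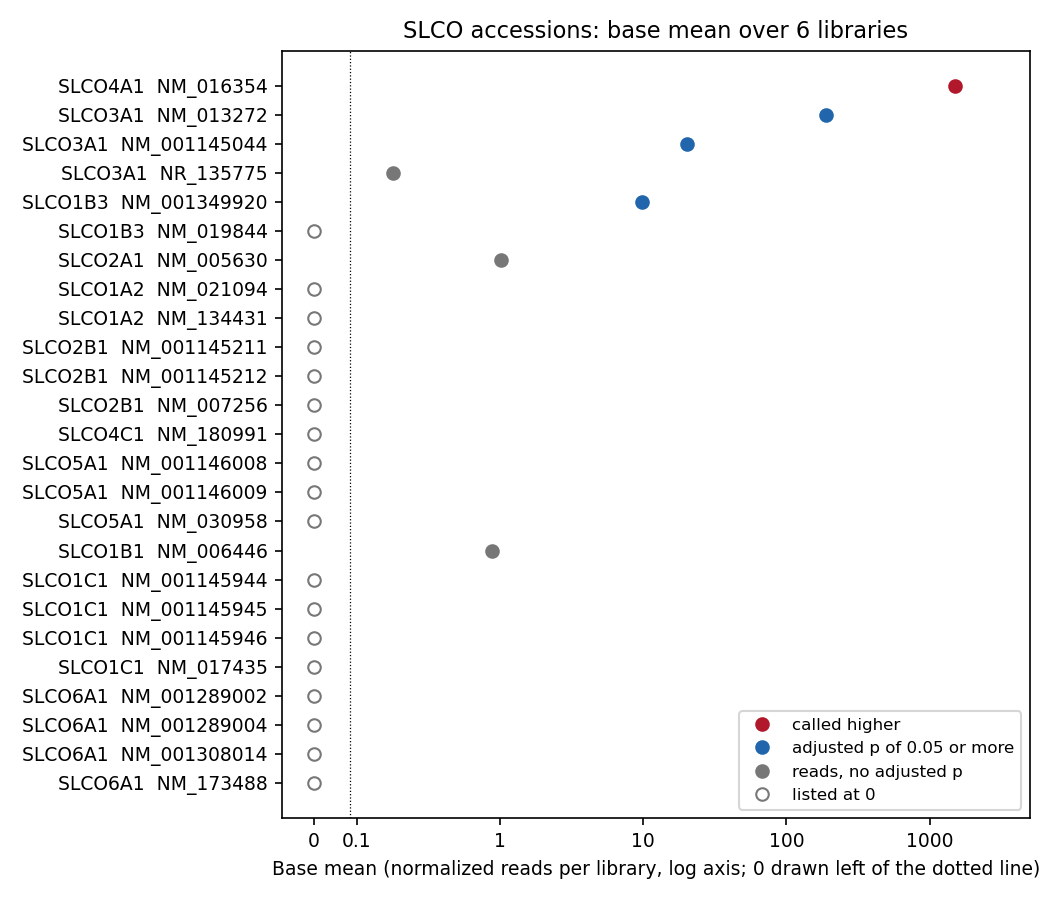
Base mean of each SLCO accession in the authors' deposited table (log axis, normalized reads per library, with 0 drawn at the left), coloured by the authors' call. SLCO4A1 lies at 1511, the leading SLCO3A1 accession at 188 and SLCO1B3 at 9.81, and open circles mark accessions listed at 0.

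**Figure D2:**
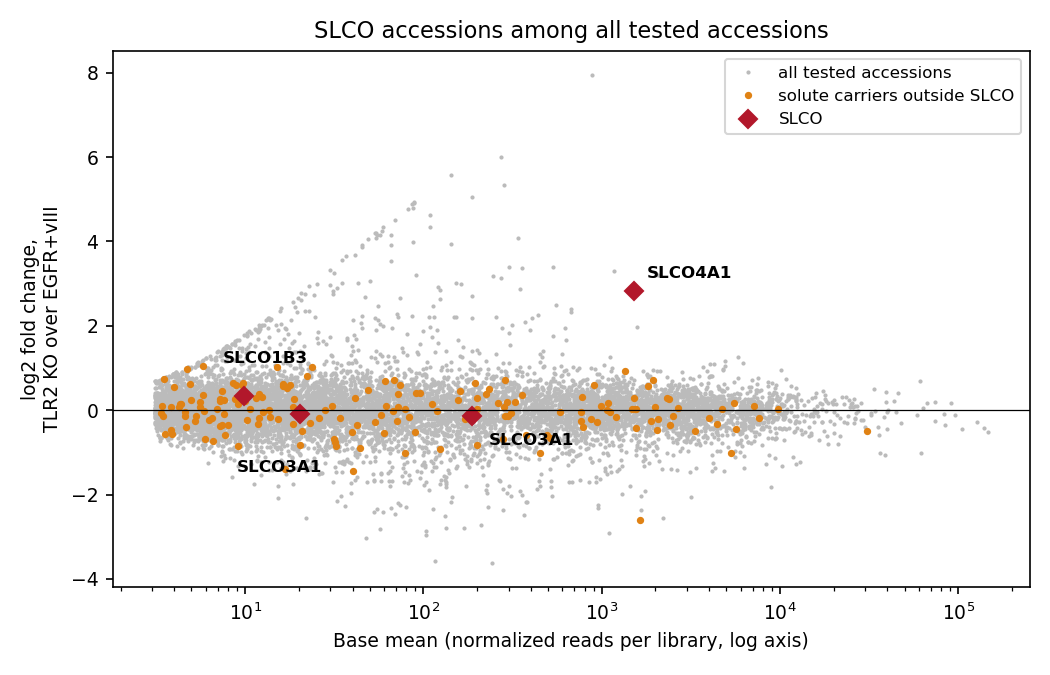
Log2 fold change of the knockout over EGFR+vIII against base mean (log axis) for every tested accession of the authors' deposited table, with SLCO accessions as diamonds and other solute carriers in orange. SLCO4A1 stands at 2.83, above every other solute carrier, while SLCO3A1 and SLCO1B3 lie within the main cloud of points.

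SLCO4A1 has 1 accession in the table, so its reads were not divided among isoforms. Its transcript overlaps an antisense RNA, SLCO4A1-AS1 (chromosome 20, 62663027 to 62666621), and 346 of the 2776 exonic bases of SLCO4A1 are shared with it. Strandedness is not given in the sources used here, so reads from these shared bases cannot be told apart. SLCO4A1-AS1 (accession NR_024470) has a base mean of 3.01 and a log2 fold change of 0.65 (SE 0.30, unadjusted p = 0.0305) in the authors' deposited table, which gives it no adjusted p. That level is reached by a single distribution of whole reads over the 6 libraries: 10 reads in 1 library, 6 in another, 2 in one more and 0 in the other 3. The table does not name its libraries, so these reads were not assigned to a group.

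The genes around SLCO4A1 were also examined. Within 1 Mb on either side, 18 genes were tested, and the authors' deposited table called 7 higher and 1 lower. These are 44.4% called and 38.9% higher, against 25.1% called and 12.4% higher over all genes, and the difference in share was not tested. Their median log2 fold change was 0.23. NTSR1, a neurotensin receptor, rose by 1.72 (SE 0.38), HELZ2 by 1.06 (SE 0.19) and the mitochondrial GTPase MTG2 by 0.93 (SE 0.12), as log2 values from the authors' deposited table. The 1 called fall was that of LAMA5, a laminin chain, at -0.76 (SE 0.09) in log2 units of the authors' deposited table, a gene named after its value was seen. The highest of these neighbours (1.72) lies below SLCO4A1 (2.83). Relative to the median of its neighbours, SLCO4A1 had a log2 fold change of 2.59 (adjusted p = 1.25e-118, from the deposited SE). That p takes the median as fixed and leaves out the spread of the neighbours, so it does not test SLCO4A1 against them.

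SLCO3A1 had the next highest base mean and did not pass the test. It encodes OATP3A1, a carrier of prostaglandins and other anions found in many tissues. Its leading accession NM_013272 (chromosome 15, 91853708 to 92172435) has a base mean of 188 in the authors' deposited table. Its deposited log2 fold change is -0.14, with an SE of 0.18 and an adjusted p = 0.671 by DESeq2. The 95% interval from that SE runs from -0.50 to 0.21 on the log2 scale, which is 0.708-fold to 1.16-fold. Relative to the median of genes within 1 Mb, taken as fixed, the log2 fold change was -0.31 (adjusted p = 0.248, from the deposited SE). The implied means are about 179 normalized reads per library in the knockout and 197 in EGFR+vIII.

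A second SLCO3A1 accession, NM_001145044, stands at 20.2 in base mean and at -0.08 in log2 fold change (SE 0.38) in the authors' deposited table, where DESeq2 gave an adjusted p = 0.921. The third, NR_135775, rests on 1 read in 1 library. Both protein-coding accessions therefore have small negative values within their SE of 0. The leading accession holds 3066 exonic bases that no other accession of the table shares, and the second holds 656. Per kilobase of transcript the base mean is 36.8 for NM_013272 and 7.46 for NM_001145044. All 8 tested genes within 1 Mb of SLCO3A1 had an adjusted p of 0.05 or more, with a median log2 fold change of 0.16. Over all genes 25.1% were called.

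Sequences upstream of an annotated start are shown for SLCO3A1 and for 2 members with few or no reads. They are shown because they differ in CpG content, a feature that the choice of members did not use. RefSeq promoter windows of 300 bases (assembly GRCh38.p14) matched 5 of the 8 members: SLCO3A1, SLCO1B3, SLCO1A2, SLCO2B1 and SLCO4C1. SLCO4A1, SLCO2A1 and SLCO5A1 had no match. The lines give the part of each window before its first annotated start, on the plus strand, with each CG in capitals.
SLCO3A1, chr15:91853458-91853694: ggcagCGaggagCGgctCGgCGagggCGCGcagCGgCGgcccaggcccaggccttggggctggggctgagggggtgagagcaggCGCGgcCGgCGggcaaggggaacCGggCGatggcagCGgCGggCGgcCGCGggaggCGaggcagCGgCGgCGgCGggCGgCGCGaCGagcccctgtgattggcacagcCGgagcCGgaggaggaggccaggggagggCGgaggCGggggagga
SLCO2B1, chr11:75159582-75159779: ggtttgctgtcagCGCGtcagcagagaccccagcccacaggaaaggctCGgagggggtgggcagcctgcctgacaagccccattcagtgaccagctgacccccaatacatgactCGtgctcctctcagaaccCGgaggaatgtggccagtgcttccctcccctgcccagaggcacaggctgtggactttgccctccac
SLCO1B3, chr12:20810455-20810701: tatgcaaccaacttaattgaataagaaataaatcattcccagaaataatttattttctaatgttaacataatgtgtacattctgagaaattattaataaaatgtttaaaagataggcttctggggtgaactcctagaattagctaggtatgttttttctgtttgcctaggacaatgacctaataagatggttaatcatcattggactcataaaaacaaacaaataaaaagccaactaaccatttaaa

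The SLCO3A1 sequence holds 32 CG pairs in 237 bases, the SLCO2B1 sequence 5 in 198 and the SLCO1B3 sequence 0 in 247. The SLCO2B1 sequence shown lies at a start inside the gene, which begins at 75151107. The matching part of the window at the gene's own start (75150857 to 75150986), not shown, holds 0 in 130 bases. Over whole windows, CG was counted 41 and 38 times in the windows of SLCO3A1 and 20 times in that of SLCO4C1. The windows of SLCO2B1 held 5 and 2, those of SLCO1A2 held 2 and 0, and that of SLCO1B3 held 0. At least 41 CG pairs are found in 6.69% of the 35116 windows of the RefSeq table, at least 20 in 41.2%, and none in 3.96%. Genes with an adjusted p had a median of 26 CG pairs per window, with quartiles of 17 and 35. Genes listed at 0 had a median of 11, with quartiles of 3 and 26. These ranges overlap, and SLCO4C1, listed at 0 with 20 CG pairs, lies within both. The SLCO1B3 window, with 0, lies 4967 bases from the start of the transcript that has the adjusted p. It was therefore not set against these ranges. These counts say nothing of what sets the level of any gene.

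SLCO1B3 had few reads and did not pass the test. It encodes OATP1B3, which carries bile salts and drugs into hepatocytes and is also found in some tumours. Its accession NM_001349920 (chromosome 12, 20810705 to 20916911) has a base mean of 9.81 in the authors' deposited table. The deposited log2 fold change is 0.34, with an SE of 0.38 and an adjusted p = 0.617 by DESeq2. The 60 reads behind that base mean fall as 20, 12, 10, 9, 7 and 2 over the 6 libraries, with no library at 0. The highest library thus has more reads than the lowest 3 together, and their groups are not named in the table. The interval from the SE spans -0.41 to 1.08 on the log2 scale, a span that holds both 0 and a rise of 2-fold.

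The other SLCO1B3 accession, NM_019844, is listed at 0. By the matching GENCODE transcripts it starts at base 20810726, and NM_001349920 starts 4946 bases further along the gene, at 20815672. The promoter window shown above belongs to the first of these starts. Only 189 of the 2840 exonic bases of NM_001349920 are shared with no other accession of the table, against 154 of the 2805 bases of NM_019844. SLCO1B1, its close paralog and another hepatocyte carrier, has 5 reads, 3 in 1 library and 2 in another, and no adjusted p. How reads that fit both paralogs were counted is not given in the sources used here.

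**Figure D3:**
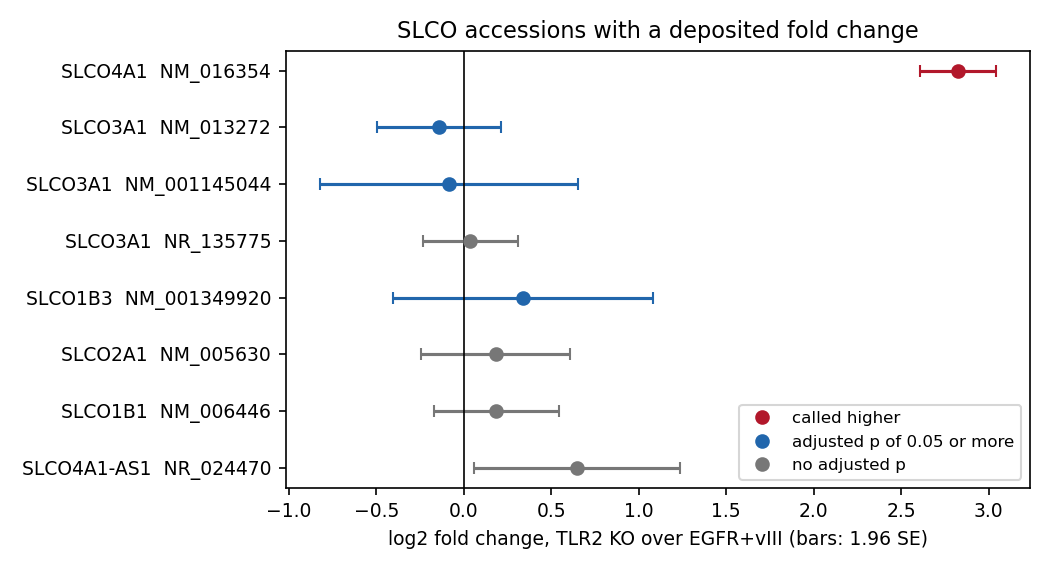
Log2 fold change of the knockout over EGFR+vIII for the 8 accessions, of SLCO genes and of SLCO4A1-AS1, that carry a value in the authors' deposited table, with bars of 95% intervals from the deposited SE. Of the accessions with an adjusted p, SLCO4A1 alone has a bar clear of 0 (2.61 to 3.04). The SLCO3A1 accession with 1 read has an SE of 0.14, below the 0.18 of the leading one. Short bars at few reads therefore do not mean precise values.

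SLCO2A1, the prostaglandin transporter that takes up prostaglandin E for breakdown, was barely detected. Its accession NM_005630 (chromosome 3, 133932701 to 134029925) has a base mean of 1.01 in the authors' deposited table, with the adjusted p left blank. That base mean stands for 6 reads, found as 2, 2, 1 and 1 in 4 libraries, with 0 in the other 2. It has 7109 exonic bases that no other accession shares, so few reads were assigned although most of its transcript was free of overlap. The deposited log2 fold change of 0.18 (SE 0.22, unadjusted p = 0.405) rests on these 6 reads.

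**Figure D4:**
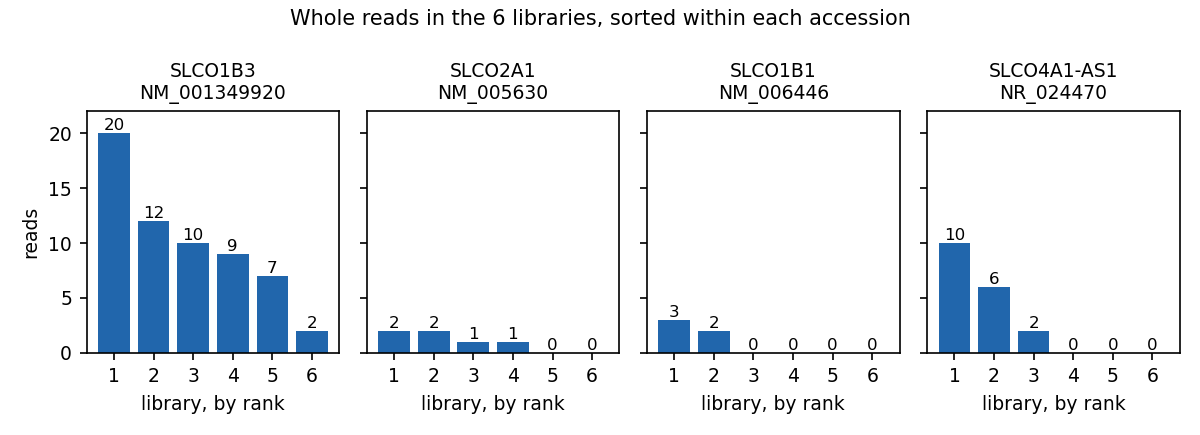
Whole reads in each of the 6 libraries for 4 accessions with low base means, sorted from the highest to the lowest library within each accession, so a rank does not stand for the same library in different panels. SLCO1B3 has reads in all 6 libraries, SLCO2A1 in 4, SLCO4A1-AS1 in 3 and SLCO1B1 in 2.

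The remaining 4 members were listed at 0 in every accession, 10 accessions of the 16 of all 8 members being at 0 once that of SLCO1B3 is counted. SLCO1A2 (chromosome 12, 21264600 to 21419634), a carrier of bile salts and drugs, has 2 accessions at 0. SLCO2B1 (chromosome 11, 75151107 to 75206549), a carrier of steroid sulphates, has 3. SLCO4C1 (chromosome 5, 102233986 to 102296284), a carrier of the kidney, has 1, and SLCO5A1 on chromosome 8 has 3. A count of 0 allows up to 3 reads over the 6 libraries by counting error alone.

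The exonic bases that an accession shares with no other differ among these 4 genes. The single SLCO4C1 accession shares none of its 5334 bases. SLCO5A1 has 5507 such bases in NM_030958, and SLCO2B1 has 1941 in NM_007256. Both SLCO1A2 accessions were matched to the same GENCODE transcript, the first listed for each, so by this match no base is free of overlap in either. Among protein-coding genes of the table, 30.0% of 7927 genes with 1 accession are listed at 0, against 43.4% of 4081 genes with 2 and 46.8% of 2532 genes with 3. Whether reads in shared bases were left out of the counts was not tested, and a listing at 0 does not show that SLCO1A2, SLCO2B1 or SLCO5A1 was silent.

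Of the SLCO genes outside the 8, SLCO1C1, the thyroxine carrier of the blood-brain barrier, is listed at 0 in all 4 accessions, as is SLCO6A1, a gene of the testis, in all 4. The chromosome 12 cluster of SLCO1C1, SLCO1B3, SLCO1B1 and SLCO1A2 spans 724 kb, from 20695332 to 21419634, and its summed reads are the 60 of SLCO1B3 and the 5 of SLCO1B1. Just outside this cluster, PDE3A, a phosphodiesterase, was lower (-1.42, SE 0.38) and ABCC9, a subunit of potassium channels, was higher (0.75, SE 0.21), in log2 units from the authors' deposited table. They were the 2 called of 5 genes tested within 1 Mb of SLCO1B3 (40.0%) and of 7 near SLCO1A2 (28.6%). Within 1 Mb of SLCO2B1, 8 genes were tested and 3 called (37.5%). Of these, MAP6 fell by 1.76 (SE 0.23) and PGM2L1 fell by 1.37 (SE 0.15), while NEU3, a sialidase, rose by 0.38 (SE 0.15), in the log2 values that the authors' deposited table holds. Within 1 Mb of SLCO2A1, 4 genes were tested and EPHB1, an ephrin receptor, was called, at -2.80 (SE 0.22) in log2 units of the authors' deposited table. Near SLCO4C1 and near SLCO5A1, 2 genes each were tested and 0 called, with median log2 fold changes of -0.66 and -0.01.

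Genes that make, break down or carry substrates of SLCO transporters were compared next. Among the 44 tested genes of these lists, the authors' deposited table called 7 higher and 6 lower, 29.5% in all, with a median log2 fold change of 0.10. With 3 tested regulators and 4 tested cell type markers added, 7 of 51 were called higher and 7 lower, 27.5% in all. Over all 9372 genes 25.1% were called, with a median of 0.02, so both shares are near the background.

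Of 9 tested thyroid hormone genes, the authors' deposited table called 2 higher and 1 lower, with a median log2 fold change of -0.18. These are 33.3% called, against 25.1% over all genes, and the difference in share was not tested. SLC7A5, an amino acid carrier that also moves thyroid hormone, rose by 0.57 (SE 0.09), and KLF9, a transcription factor induced by thyroid and steroid hormones, rose by 0.63 (SE 0.11), both as log2 values from the authors' deposited table. Both rises are smaller than that of SLCO4A1.

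Of 14 tested prostaglandin genes, 1 was called higher and 2 lower by the authors' deposited table, with a median of 0.08. These are 21.4% called, against 25.1% over all genes. PTGES, which makes prostaglandin E2, rose by 0.53 (SE 0.10, base mean 1251). The receptor PTGER4 fell by 0.51 (SE 0.17) and PLA2G4A, the phospholipase that releases arachidonic acid, fell by 0.96 (SE 0.38), both in log2 units from the authors' deposited table. Both falls were lost with Wald scores scaled by their own central spread (adjusted p = 0.454 and 0.631).

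The list of steroid sulphate and bile acid genes held the largest single change of the related lists. HSD17B2 (chromosome 16, 82035253 to 82098534), the enzyme that inactivates oestradiol and testosterone, rose by 4.06 (SE 0.36, adjusted p = 3.31e-28, base mean 49.1) in log2 units from the authors' deposited table. HSD17B12, an enzyme of fatty acid elongation, was lower (-0.41, SE 0.07, base mean 7041). The other 5 of 7 tested members of that list had an adjusted p of 0.05 or more, so 28.6% were called, against 25.1% over all genes. A further 9 of the 22 listed genes are at 0.

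In each of 3 further lists 1 gene was called, of 3 or 4 tested, a share near the 25.1% over all genes. Among SLC22 organic ion carriers, 1 of 4 tested members was called: SLC22A4, a carrier of ergothioneine, with a log2 rise of 0.71 (SE 0.15) per the authors' deposited table. Of SLC22 genes, 14 of the 21 in the table are at 0. Among ABC efflux pumps, which export organic anions and drugs, 1 of 4 was called: ABCC3, which fell by 0.68 (SE 0.26), while ABCC2 had 0.21 (SE 0.20, adjusted p = 0.546). Of the regulators known for SLCO genes, 3 were tested and 1 was called: AHR, the aryl hydrocarbon receptor, which fell by 0.53 (SE 0.07, base mean 6140) in the authors' deposited table. The calls of SLC22A4 (adjusted p = 0.0871) and ABCC3 (adjusted p = 0.627) were lost with scaled Wald scores.

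Haem and porphyrin genes were included because SLCO2B1 is known to carry a porphyrin. Of 6 tested, 2 were called higher and 1 lower by the authors' deposited table, with a median of 0.41. These are 50.0% called, against 25.1% over all genes, and the difference in share was not tested. The haem carrier SLC48A1 rose by 0.64 (SE 0.18) and HMOX1, which degrades haem, rose by 0.42 (SE 0.13), while CPOX, an enzyme of haem synthesis, fell by 0.55 (SE 0.08), again as log2 values from the authors' deposited table. Both rises were lost with scaled Wald scores (adjusted p = 0.252 and 0.383).

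**Figure D5:**
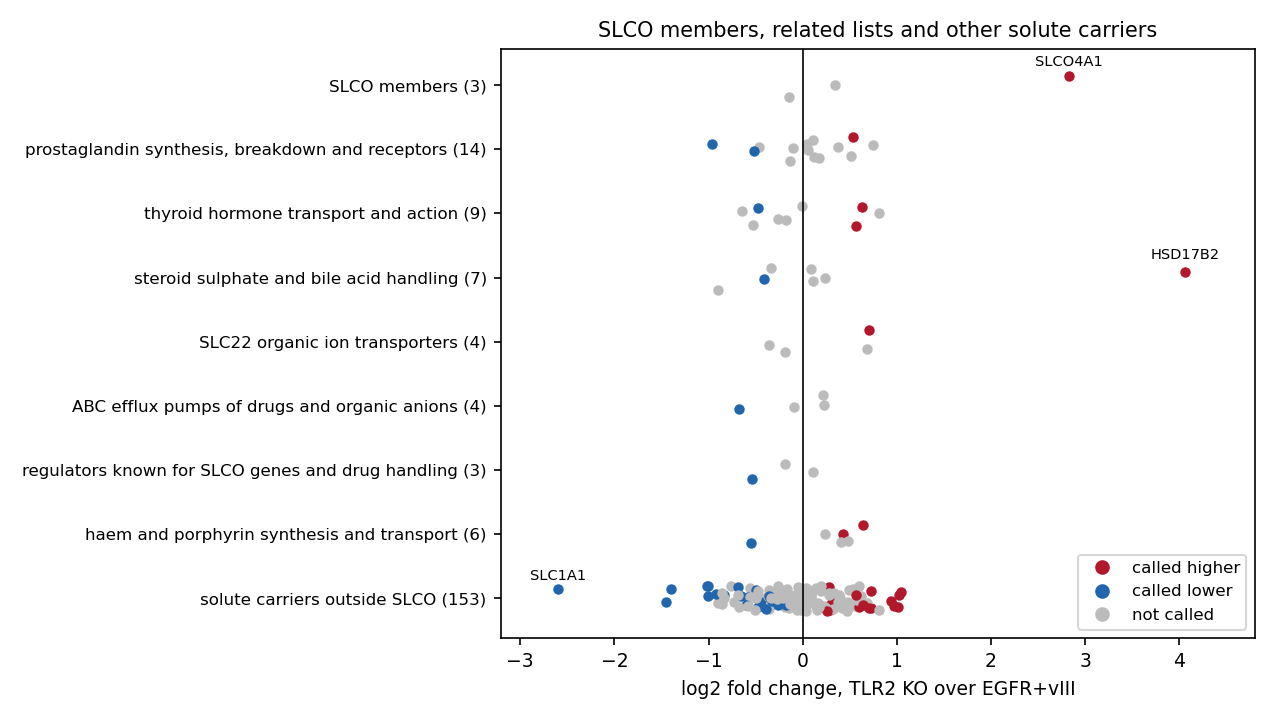
Log2 fold change of the knockout over EGFR+vIII for the tested genes of each list (number tested in brackets), each gene by its accession with the highest base mean, red where called higher and blue where called lower in the authors' deposited table. SLCO4A1 (2.83), HSD17B2 (4.06) and SLC1A1 (-2.60) lie apart from the other points, and the vertical scatter within a list carries no value.

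Set against other genes with solute carrier symbols, SLCO4A1 had the largest change in absolute size. Of 153 such symbols outside SLCO with an adjusted p, 12 of them antisense and other RNAs, the authors' deposited table called 16 higher and 22 lower, 24.8% in all, with a median log2 fold change of -0.04. Without those RNAs the counts were 16 higher and 21 lower of 141, or 26.2%. Their fold changes ran from -2.60 to 1.04 on the log2 scale. The largest rises were those of SLC25A30 (1.04, SE 0.34) and SLC25A22 (1.02, SE 0.38), mitochondrial carriers, SLC15A3 (1.02, SE 0.35), a peptide carrier of lysosomes, SLC7A2 (0.97, SE 0.34), an arginine carrier, and the cystine carrier SLC7A11 (0.94, SE 0.09). Of these, SLC7A11 has a base mean of 1351 and the other 4 have base means of 4.73 to 23.6. The largest falls were those of the glutamate carrier SLC1A1 (-2.60, SE 0.10), SLC7A4 (-1.45, SE 0.32), the antisense RNA SLC9A3-AS1 (-1.40, SE 0.38), the inositol carrier SLC5A3 (-1.02, SE 0.08) and SLC6A17 (-1.01, SE 0.16), all in log2 units from the authors' deposited table.

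The calls were also set against stricter nulls. Of the 33 called genes outside SLCO that the naming rule chose, 7 also passed when the null was a change of up to 1.5-fold: HSD17B2, SLC1A1, SLC5A3, SLC7A11, EPHB1, MAP6 and PGM2L1. With Wald scores divided by their own central spread of 1.75, 17 of the 33 lost the call. Beside those given above, they include SLC25A30, SLC25A22, SLC15A3, SLC7A2, SLC7A4, SLC9A3-AS1, NTSR1, NEU3, PDE3A and ABCC9. SLCO4A1 passed both tests, with adjusted p = 3.38e-88 for a change of more than 1.5-fold and adjusted p = 6.35e-45 with scaled scores. SLC1A1 passed both as well, with adjusted p = 6.70e-89 and adjusted p = 2.13e-47. Both tests reuse the deposited fold changes and SE, from which these genes were picked, so passing them adds no separate support.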

How the data were processed

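The authors compared RNA-seq of 6 libraries, 3 in each group, in 1 deposited table of 67933 RefSeq accessions. Per the submitters' processing notes, the authors used STAR, DESeq2 and hg38. The counter, the strandedness and the annotation are not stated in the sources used. Per the file headers, the authors deposited a base mean (a signal of abundance), a log2 fold change with its SE on the log2 scale, a Wald score, a p-value and an adjusted p. The authors' adjusted p matched Benjamini-Hochberg values computed here from the 10303 accessions that have one. An accession is called at an adjusted p under 0.05. No SE exceeds 0.38 however few the reads, so the authors' deposited log2 fold changes appear drawn towards 0, which would understate those of few reads.

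Accessions were matched to genes with a RefSeq table of GRCh38.p14 (98.8% matched) and to exons with GENCODE 29 of the same build; unshared bases were counted against the 54704 matched accessions. Intervals from the SE have a nominal level of 95%, which cannot be relied on for accessions with few reads. The floor for a count of 0 is 3 reads and covers counting error only. Base means above 0 are sums of whole reads weighted by 1 over 6 size factors; weights were set on 4042 accessions, and reads are given where 1 solution lay within 2e-09. Tests and recovery were tested on simulated data with Python 3.11.15 and scipy 1.17.1.

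Genes named outside SLCO are, per list, up to 3 called rises and 3 called falls and the highest base mean (5 and 5 for solute carriers), and up to 3 called genes within 1 Mb of each member. Members and lists were chosen with earlier results of these data known. Alternatives were other nulls, filters, centring, neighbours and accessions. Some items that the rule chose are not reported here.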

Additional observations from a re-analysis of the deposited data

How the results depend on the processing

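SLCO4A1 kept its call under all 6 alternatives run on it; 4 of them leave the deposited fold change as it is, so only centring and the neighbours could move it. Its log2 fold changes were 2.59 to 2.83 and its adjusted p-values 2.36e-141 to 6.35e-45. SLCO3A1 and SLCO1B3 stayed uncalled with the same sign wherever tested, SLCO1B3 having no value with a base mean of at least 100. With the second accession of each gene in place of the leading one, the called SLCO members numbered 0, since SLCO3A1 alone has such an accession with an adjusted p. The called genes of the related lists then numbered 0 higher and 0 lower. How many of those genes have a second accession with an adjusted p is not given here, so these counts do not show that their calls fail. With a null of up to 1.5-fold, the test called 198 accessions of the table higher and 210 lower, 1 higher and 0 lower in the related lists, and 1 higher and 2 lower among other solute carriers. Scaled Wald scores called 396 higher and 494 lower over the table, 4 higher and 3 lower in the related lists, and 4 higher and 6 lower among other solute carriers. Both alternatives are stricter by construction. Without a filter on low base means, ABCC3, NEU3, PLA2G4A and SLC25A22 lost the call (adjusted p = 0.0793, 0.0701, 0.0818 and 0.0578), and NEU3 also did when centred on the median (adjusted p = 0.0549). Leaving out a replicate was not run, because the table has no value per library. No paired analysis was possible because the table has no value per library and its libraries carry no number. SLCO1B3, SLCO2A1, SLCO1B1 and SLCO4A1-AS1 rest on 60, 6, 5 and 18 reads, and the last 3 have no adjusted p.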
